A study of Mus musculus with 19 samples.

Results

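The 38 genes described here mark macrophages, monocytes, dendritic cells and neutrophils, the myeloid cells of the lung, and were read in sorted alveolar type II (AT2) cells and in lung tissue. They were chosen by name, as known markers and surface receptors of these cells, with earlier results of these data known. All 38 were found among the 36528 gene IDs of the count tables. By role they fall into 6 leukocyte and myeloid lineage genes, 4 Fc receptors and adaptors, 5 macrophage receptors and surface proteins, 5 scavenger receptors and lectins, 3 subunits of complement C1q, 4 monocyte genes, 6 neutrophil genes and 5 dendritic cell genes.

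Polyadenylated RNA was sequenced from 19 mouse libraries: 4 of AT2 cells and 5 of lung from controls, and 5 of AT2 cells and 5 of lung from mice labelled Etv5KO. Controls carried SpcCreERT2 and RosatdTomato, that is, a tamoxifen-activated Cre recombinase driven by the promoter of the surfactant protein C gene, which is active in AT2 cells, with a red fluorescent reporter. Mice labelled Etv5KO carried the same alleles with Etv5ko/loxp, 1 null and 1 loxP-flanked allele of Etv5, an ETS family transcription factor gene. Both genotypes received tamoxifen at 100 mg/kg for 5 days and were sampled after a further 5 days, and AT2 cells were collected as EpCAM+, tdTomato+, CD45- and CD31-. The labels give neither the age and sex of the mice nor which mouse supplied which pair of AT2 and lung libraries.

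Macrophages, monocytes and dendritic cells develop under the cytokine receptors encoded by Csf1r and Flt3, neutrophils under that encoded by Csf3r, and all of them depend on the ETS factor PU.1, the product of Spi1. Resident alveolar macrophages lie in the air space beside AT2 cells and clear surfactant and particles through scavenger receptors such as MARCO and the mannose receptor, while interstitial macrophages and tissue monocytes sit in the wall and vessels. Nearly all carry CD45, the product of Ptprc, on their surface, so the CD45- gate of the sort selects against them. In libraries made from many cells, fewer cells of a type and less RNA per cell cannot be told apart.

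The promoters of the 3 members whose levels passed a test between genotypes, Cd68, Ly6c2 and Marco, are printed to show the letters around their start sites. Each runs 5′ to 3′ on the gene's strand from 250 bases before to 50 bases after the start given by RefSeq (assembly GRCm38.p6). Capitals mark GAGGAA, the core to which PU.1 binds, on either strand, so that its complement reads TTCCTC. Cd68, at chr11:69666121-69666420 on the minus strand, holds it 225 bases before the start and again 29 bases after it. Ly6c2, at chr15:75111888-75112187 on the minus strand, holds it 142 and 8 bases before the start (1 of its 2 RefSeq promoters). Marco, at chr1:120504975-120505274 on the minus strand, holds it 146 bases before the start.
Cd68: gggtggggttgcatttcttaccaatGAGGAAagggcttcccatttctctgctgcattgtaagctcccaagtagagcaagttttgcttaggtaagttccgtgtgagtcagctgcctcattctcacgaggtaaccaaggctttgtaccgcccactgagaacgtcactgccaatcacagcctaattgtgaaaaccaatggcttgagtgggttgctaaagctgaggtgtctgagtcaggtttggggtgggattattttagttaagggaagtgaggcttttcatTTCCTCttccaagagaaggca
Ly6c2: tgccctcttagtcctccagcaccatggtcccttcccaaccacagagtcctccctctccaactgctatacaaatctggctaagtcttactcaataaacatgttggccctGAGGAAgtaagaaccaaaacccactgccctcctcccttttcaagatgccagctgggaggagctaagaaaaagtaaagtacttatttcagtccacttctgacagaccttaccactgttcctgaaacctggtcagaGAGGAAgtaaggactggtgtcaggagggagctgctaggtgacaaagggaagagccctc
Marco: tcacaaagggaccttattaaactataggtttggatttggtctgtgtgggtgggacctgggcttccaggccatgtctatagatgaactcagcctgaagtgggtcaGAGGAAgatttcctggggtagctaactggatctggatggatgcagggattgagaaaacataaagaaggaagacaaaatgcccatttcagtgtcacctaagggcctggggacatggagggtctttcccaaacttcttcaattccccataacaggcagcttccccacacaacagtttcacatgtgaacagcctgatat

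RefSeq promoters of this length were matched for 31 of the 38 members, 36 promoters in all since some genes have several. GAGGAA was found in 19 of these 36 promoters (52.8%), belonging to 17 members, and in 9289 of all 32851 promoters (28.3%). The longer GAGGAAGT, which contains it, was found in 3 of the 36 (8.3%), belonging to 2 members, against 3.2% of all. CCGGAA, another ETS core, which cannot share its GGAA with GAGGAA, was found in 4 (11.1%) against 14.9%. The 2 promoters of Ly6c2 overlap and hold the same GAGGAA sites, as do the 2 of Fcgr3, so these sites were counted more than once. Both strands were searched. These matches describe letters only, and binding was not measured.

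Levels are given in CPM, read counts scaled to the size of each library with TMM factors over all 19, as single values or mean ± SD. Total counts per library lay between 14971793 and 28671262, and the 38 members together took 0.00894% to 0.0166% of the counts of AT2 libraries and 0.220% to 0.365% of those of lung libraries. Etv5 itself stood at 667 ± 36.1 CPM in control AT2 cells (SD, n = 4) and 713 ± 58.4 in Etv5KO AT2 cells (SD, n = 5), and at 103 ± 7.2 and 113 ± 10.8 in the corresponding lungs (SD, n = 5 each). It was not lower under the Etv5KO label in either tissue, but a count over the whole gene does not read which exons are present, so it does not check the label. Every direction between genotypes below is therefore one between libraries labelled Etv5KO and control.

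The first comparison asks how much of the myeloid signal of lung remained in the sorted cells. In controls, 37 of the 38 members were lower in AT2 cells than in lung (edgeR quasi-likelihood test, adjusted p under 0.05), against 38.9% of all genes tested, and none was higher, against 35.6% (74.5% of all genes in either direction). The median member stood at 3.53% of its level in lung. In mice labelled Etv5KO, 36 of the 37 members tested were lower, where 39.7% of all genes were, and 1 was higher, where 38.3% were (78.0% in either direction), with a median of 3.82%. Values of this comparison rest on scaling 2 unlike tissues together: with scaling by library size alone, the median log2 difference of all genes moved from −0.01 to −0.42 in controls and from 0.01 to −0.36 in mice labelled Etv5KO.

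Under 10% of the lung level were 34 of the 38 members in controls, between 1.86% and 6.30%. The 4 above it were Mertk at 10.1%, Camp at 15.04%, Cd68 at 30.3% and Ly6c2 at 134%. For Camp, the gene of the neutrophil granule peptide cathelicidin, this rests on 5 reads in the 4 control AT2 libraries together and on 52 in control lung. In mice labelled Etv5KO, 34 of 37 were under 10%, between 1.47% and 6.42%, and Mertk, Cd68 and Ly6c2 were again above.

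**Figure D1:**
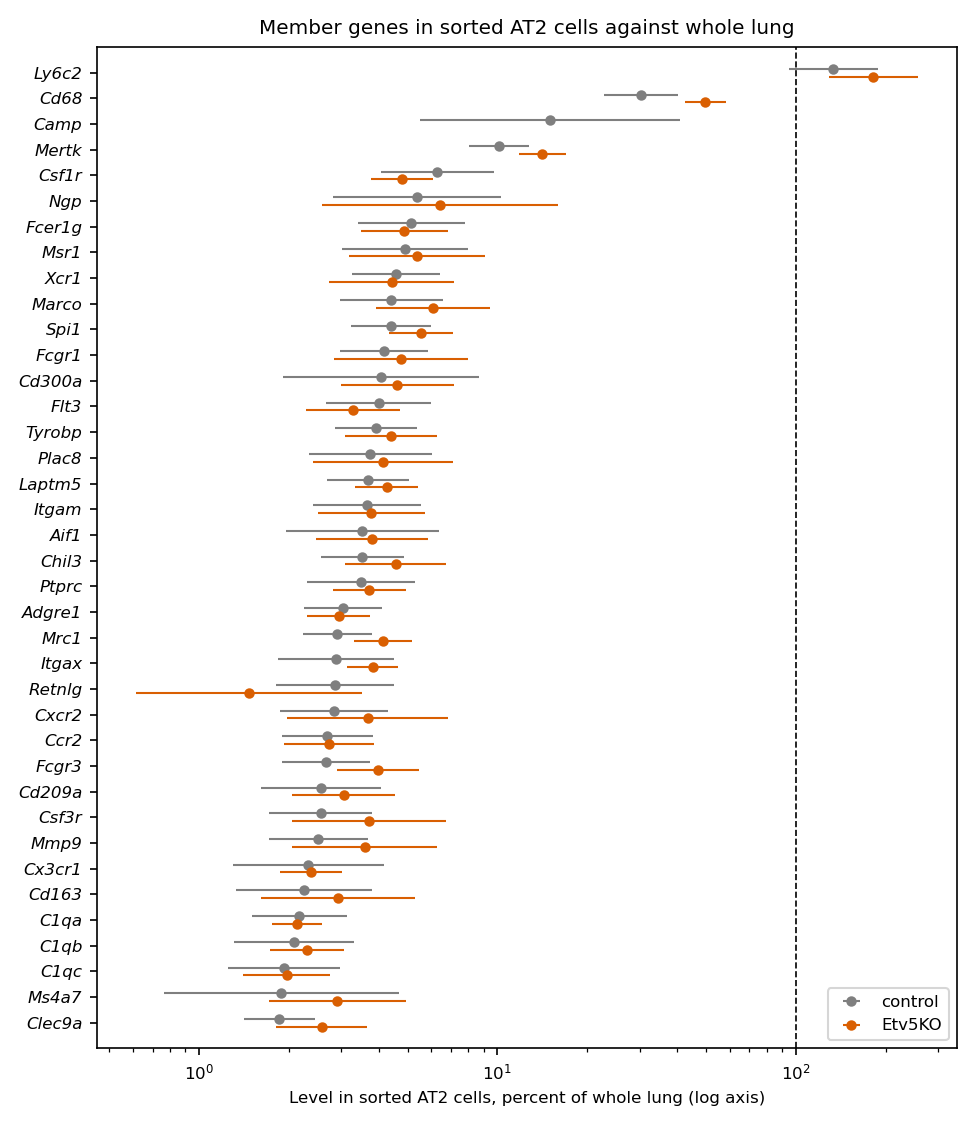
Fitted level of each member in sorted AT2 cells as a percent of its level in lung, on a log axis, for controls (grey) and mice labelled Etv5KO (orange), with 95% intervals as bars; the dashed line marks equal levels. In controls, 34 members lie between 1.86% and 6.30%, and Cd68, at 30.3%, and Ly6c2, at 134%, lie apart from them.

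Among the lineage genes, Ptprc, which encodes the CD45 used in the gate, read 9.93, 12.6, 7.79 and 4.45 CPM in the control AT2 libraries and 8.27, 8.50, 6.04, 10.1 and 8.61 CPM in those labelled Etv5KO. Lung libraries held 288, 316, 209, 248 and 192 CPM in controls and 145, 234, 245, 284 and 217 CPM under the Etv5KO label. Every AT2 library was thus far below every lung library, and the genotypes overlapped in both tissues. Ptprc in AT2 cells came to 3.49% of lung in controls and 3.72% in mice labelled Etv5KO.

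Spi1, the gene of PU.1, read 2.71, 3.84, 2.38 and 2.25 CPM in control AT2 cells, with 3.35, 2.37, 2.66, 4.20 and 3.40 CPM in Etv5KO AT2 cells. In lung the values were 83.7, 66.2, 50.6, 66.2 and 52.8 CPM for controls and 45.5, 58.9, 56.7, 74.2 and 53.9 CPM for Etv5KO. The AT2 values were all low and overlapped between genotypes, at 4.40% and 5.56% of lung. The other 4 lineage genes stood at 3.66% of lung in controls for Itgam, an integrin chain, 3.68% for Laptm5, a lysosomal membrane protein of blood cells, 3.53% for Aif1 and 4.07% for the inhibitory receptor gene Cd300a. Of 5128 words of 50 bases in the transcripts of Itgam, 66.34% occur also in the gene model Gm49368. No gene of the count tables was found to overlap Itgam, and whether these shared words affected its counts was not tested.

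Fc receptors bind antibody, and Fcer1g and Tyrobp encode the signalling adaptors that they and related receptors share. The receptor gene Fcgr1 was low in AT2 cells, at 0.380, 0.535, 0.390 and 0.415 CPM in controls and 0.722, 0.528, 0.211, 0.633 and 0.155 in Etv5KO. Lungs read 11.6, 13.2, 7.57, 9.996 and 10.05 CPM in controls and 4.94, 8.84, 11.9, 11 and 9.39 in Etv5KO, so that no AT2 library came near a lung library. Tyrobp read 4.34, 3.11, 3.46 and 2.43 CPM in control AT2 cells against 113, 88.5, 66.7, 89.5 and 68.9 in control lung. With the Etv5KO label it read 3.87, 2.43, 2.83, 5.47 and 3.20 in AT2 cells and 51.3, 85.6, 91.1, 106 and 71.3 in lung. Both genes overlapped between genotypes within each tissue, and their AT2 levels were 4.17% and 3.93% of lung in controls. Fcgr3 stood at 2.66% and Fcer1g at 5.15%; Fcgr3 shares 9.58% of its 50-base words with its neighbour Fcgr2b.

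Of the macrophage receptors, Csf1r encodes the receptor for the growth factor CSF1 and is among the genes that define macrophages and monocytes. It read 13.2, 21.6, 12.2 and 10.6 CPM in control AT2 cells, with 9.25, 11.1, 6.21, 9.38 and 9.28 CPM in Etv5KO AT2 cells. Lungs read 363, 238, 171, 202 and 173 CPM in controls, and 138, 196, 202, 216 and 201 in Etv5KO. As for Ptprc, every AT2 library was below every lung library, with AT2 cells at 6.30% and 4.78% of lung. Of its 5776 words of 50 bases, 14.27% are shared with the neighbouring gene Hmgxb3, which read 68.0 CPM in control AT2 cells and 43.5 in control lung.

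Adgre1, which encodes the macrophage surface protein F4/80, read 1.63, 2.72, 1.602 and 1.25 CPM in control AT2 cells, with 1.57, 1.37, 1.86, 2.25 and 1.29 in Etv5KO. Lung libraries gave 74.9, 54.8, 53.5, 61.5 and 53.9 CPM in controls, and 45.8, 63.8, 49.97, 67.1 and 61.1 in Etv5KO. Its AT2 level was 3.05% of lung in controls, close to the median member. Mertk, a receptor for the uptake of dying cells, was higher in AT2 cells relative to lung than most members, at 7.22, 6.42, 8.57 and 5.75 CPM in controls and 10.2, 8.92, 8.16, 10.1 and 9.44 in Etv5KO. Lung values of Mertk were 55.2, 64.2, 82.9, 66.0 and 78.3 CPM in controls, and 84.9, 57.5, 56.9, 67.9 and 67.2 in Etv5KO. Ms4a7, a membrane protein of macrophages, was at the other end, at 0.109, 0.0973, 0.173 and 0 CPM in control AT2 cells, with 0.197, 0.0528, 0.211, 0.173 and 0 in Etv5KO. In lung Ms4a7 read 11.4, 3.34, 3.48, 5.25 and 4.60 CPM in controls, where library 1 stood highest, and 3.90, 3.99, 3.85, 5.79 and 5.45 CPM in Etv5KO. Its AT2 values come from 8 reads in 4 libraries and 12 reads in 5, and 1 library of each genotype was at 0.

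C1q, made in tissue mostly by macrophages, starts the classical complement cascade and is assembled from the products of C1qa, C1qb and C1qc. C1qa read 0.814, 1.22, 1.43 and 0.771 CPM in control AT2 cells, with 0.984, 0.739, 1.06, 1.21 and 1.34 in Etv5KO. Lungs read 71.3, 38.4, 46.5, 49.8 and 43.9 in controls, and 53.5, 54.4, 44.1, 53.8 and 48.6 in Etv5KO. C1qb read 1.03, 1.46, 0.649 and 1.01 CPM in control AT2 cells, with 1.12, 0.528, 0.845, 1.44 and 1.70 in Etv5KO. In lung it gave 78.4, 34.8, 45.3, 48.8 and 40.9 for controls, and 48.4, 56.4, 43.0, 51.6 and 46.8 under the Etv5KO label. The AT2 values of C1qc were 0.705, 1.07, 0.606 and 0.593 CPM for controls, and 0.459, 0.317, 0.676, 1.15 and 1.24 for Etv5KO. Its lung values were 59.2, 27.4, 38.4, 36.9 and 33.8 for controls, and 41.1, 45.1, 33.5, 43.7 and 36.1 for Etv5KO. All 3 subunits lay between 0.317 and 1.7 CPM in every AT2 library and between 27.4 and 78.4 CPM in every lung library. In controls they stood at 2.17%, 2.08% and 1.92% of lung and were, with Clec9a and Ms4a7, the 5 members furthest below it. Under the Etv5KO label they stood at 2.13%, 2.30% and 1.97%, where Retnlg was furthest below lung.

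Scavenger receptors and lectins take up particles, modified lipoproteins and glycoproteins. The mannose receptor gene Mrc1 read 4.18, 4.23, 2.60 and 2.37 CPM in control AT2 cells, with 3.81, 5.01, 6.003, 6.22 and 4.49 in Etv5KO. Its lung libraries read 104, 123, 132, 113 and 103 in controls, and 138, 116, 96.7, 141 and 138 in Etv5KO. AT2 and lung did not overlap. Control AT2 cells were at 2.91% of lung and those labelled Etv5KO at 4.13%. Msr1 stood at 4.91%, Cd163, the haemoglobin scavenger receptor, at 2.25%, Marco at 4.41% and Chil3, a chitinase-like lectin that alveolar macrophages secrete, at 3.53% of lung in controls. Chil3 shares 26.89% of its 50-base words with other genes, chiefly its copy Chil4, and so is uncertain. Chil4 itself read 0.0148 ± 0.0296 CPM in control AT2 cells and 0.105 ± 0.0417 in control lung.

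The monocyte genes Ccr2 and Cx3cr1 encode chemokine receptors that separate inflammatory from patrolling monocytes. Ccr2 read 2.06, 2.92, 1.69 and 1.96 CPM in control AT2 cells, with 1.90, 3.11, 0.972, 2.48 and 1.75 in Etv5KO. Its lung values were 90.7, 103, 53.6, 82.7 and 71.5 CPM in controls, and 52.6, 75.8, 83.8, 90.3 and 72.1 in Etv5KO. Cx3cr1 in AT2 cells read 1.30, 2.24, 0.866 and 0.356 CPM in controls, and 1.12, 1.06, 0.845, 1.15 and 0.722 in Etv5KO. In lung it read 82.4, 50.3, 42.9, 50.9 and 34.8 CPM in controls, highest in library 1, and 32.1, 40.7, 43.2, 50.9 and 40.0 CPM in Etv5KO. Both were low in every AT2 library, at 2.69% and 2.32% of lung in controls, and Plac8 was at 3.75%.

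Ly6c2, which encodes 1 of the pair of Ly6C surface proteins used to sort monocytes, was the exception. Its levels in AT2 cells of controls, 17.6 to 28.5 CPM, overlapped those of control lung, 10.1 to 25.4 CPM. The log2 difference was 0.42 (SE 0.23, edgeR adjusted p = 0.112), with a 95% interval of −0.08 to 0.91. Leaving out control lung library 2, the highest, took it to 0.61 with adjusted p = 0.0119. In mice labelled Etv5KO every AT2 library, at 29.6 to 38.5 CPM, was above every lung library, at 7.88 to 27.0 CPM, a log2 difference of 0.86 (SE 0.23, edgeR adjusted p = 0.00381). Of all genes, 29.7% were higher there with no overlap. That difference was 0.49 with adjusted p = 0.0694 when libraries were scaled by size alone. Its neighbour Ly6c1, named here because the copies share 379 of the 2733 words of 50 bases of Ly6c2, ran the other way between tissues, at 39.2% of lung in controls and 52.8% in Etv5KO.

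Among neutrophil genes, Csf3r, the receptor gene for the growth factor G-CSF, read 2.44, 1.95, 2.08 and 1.25 CPM in control AT2 cells, with 2.76, 2.59, 0.845, 3.34 and 2.48 in Etv5KO. Lung libraries held 68.2, 118, 58.2, 69.7 and 67.6 CPM in controls and 29.0, 51.8, 90.7, 101 and 46.4 in Etv5KO, a wide spread in both. Camp read 0.0543, 0, 0.130 and 0.0593 CPM in control AT2 cells, with 0.131, 0, 0.0423, 0 and 0.0516 in Etv5KO. In lung it read 0.424, 0.527, 0.134, 0.647 and 0.582 in controls, and 0.358, 0.850, 1.31, 0.125 and 0.211 in Etv5KO. It was at most 1.31 CPM in every library, with zeros in AT2 libraries of both genotypes, and these few reads lie behind its call in controls (edgeR adjusted p = 0.00258). The chemokine receptor gene Cxcr2, the gelatinase gene Mmp9, the granule protein gene Ngp and Retnlg, a resistin-like cytokine gene, stood at 2.84%, 2.51%, 5.38% and 2.86% of lung in controls.

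Dendritic cell genes were low in AT2 cells as well. The integrin gene Itgax, encoding CD11c, which alveolar macrophages also carry, read 3.09, 4.33, 1.43 and 1.601 CPM in control AT2 cells, with 2.76, 3.75, 2.87, 3.80 and 2.48 in Etv5KO. In lung it read 125, 90.8, 84.4, 82.2 and 73.4 CPM in controls and 72.6, 79.5, 77.6, 98.1 and 87.1 in Etv5KO. Flt3, the cytokine receptor gene of dendritic cell precursors, read 0.380, 0.438, 0.173 and 0.296 CPM in AT2 cells of controls, and 0.131, 0.317, 0.254, 0.403 and 0.258 in those of Etv5KO. Lungs held 10.99, 6.45, 7.57, 7.98 and 7.35 CPM in controls, and 9.20, 8.92, 7.12, 11.3 and 6.68 in Etv5KO. No AT2 library of either gene reached a lung library.

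Clec9a, a receptor gene of cross-presenting dendritic cells, was the member furthest below lung in controls. Its AT2 libraries read 0.651, 0.535, 0.606 and 0.593 CPM in controls and 0.394, 0.475, 1.14, 0.691 and 0.774 in Etv5KO. Lungs gave 29.2, 30.7, 42.3, 27.8 and 31.5 CPM in controls, and 38.3, 23.2, 23.3, 30.3 and 27.4 in Etv5KO. AT2 cells were therefore at 1.86% of lung in controls and 2.58% in Etv5KO. The chemokine receptor gene Xcr1 and the lectin gene Cd209a were at 4.57% and 2.57% in controls.

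Markers of endothelial, mesenchymal and lymphoid cells were at a like low level in control AT2 cells. The median marker stood at 2.12% of lung for 8 endothelial genes, 2.02% for 6 mesenchymal genes and 2.79% for 12 lymphocyte genes. Erythroid markers were at 0.177%, airway markers at 5.23% and AT2 markers at 703%. The gene of each list with the most CPM in control lung, a scale that does not allow for length, was Calcrl (endothelial) at 24.3 ± 3.85 CPM in control AT2 cells against 1396 ± 200.3 in lung, Col3a1 (mesenchymal) at 18.7 ± 5.69 against 1008 ± 443, and Sftpc (AT2) at 78517 ± 17852 against 8134 ± 1113. Cd79b, for lymphocytes, read 32.5 ± 8.20 CPM in AT2 cells and 45.9 ± 13.02 in lung, Scgb1a1 (airway) 406 ± 160.0 and 20562 ± 4700, and Hba-a1 (erythroid) 0.0637 ± 0.0696 and 119 ± 101 (SD, n = 4 AT2 and 5 lung libraries). Cpa3, of the mast cell and basophil list, read 0.0338 ± 0.0420 CPM in control AT2 cells and 3.14 ± 0.469 in control lung.

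Levels of different genes can be set side by side only per length of transcript, for which the authors' RPKM values were used. By that scale the highest members in control AT2 cells were Ly6c2 at 25.9 ± 5.21 RPKM, Chil3 at 10.3 ± 2.57, Cd68 at 9.97 ± 2.16 and Tyrobp at 5.51 ± 1.34 (SD, n = 4). Chil3 and Cd68 did not differ beyond their spread. In control lung the order was another: Chil3 led at 302 ± 65.5 RPKM, followed by Tyrobp at 145 ± 31.3, Laptm5 at 120.2 ± 16.8 and Plac8 at 83.4 ± 27.6 (SD, n = 5). Tyrobp and Laptm5 lay within their spread of each other there. Etv5KO lung had the same 4 genes in the same order, with Chil3 at 262 ± 68.1 RPKM.

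**Figure D2:**
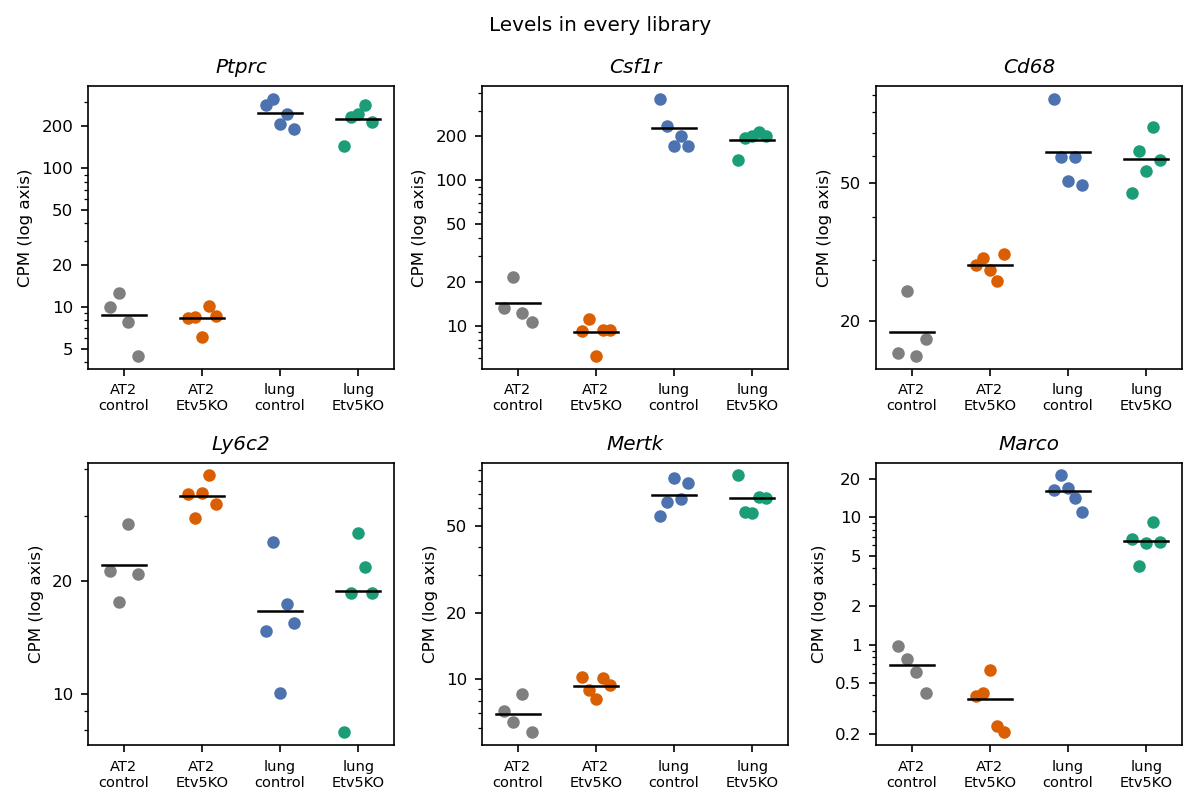
CPM of 6 members in every library on log axes, 1 point for each library and a black line at the group mean, for control and Etv5KO AT2 cells and control and Etv5KO lung. Ptprc and Csf1r show AT2 far below lung, Ly6c2 shows AT2 at or above lung, Cd68 and Ly6c2 are higher in all 5 Etv5KO than in all 4 control AT2 libraries, and Marco is lower in all 5 Etv5KO than in all 5 control lungs.

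The second comparison asks which members differed with the Etv5KO label within sorted AT2 cells. Cd68 and Ly6c2 rose, and no other member passed the test. Of the 38 members, 29 had enough counts to be tested, and 2 were higher, against 5.03% of all 14939 genes tested, and none was lower by the edgeR test, against 4.84% (9.87% in either direction). At an unadjusted p under 0.05 there were 6 of the 29, where 3321 of all 14939 genes tested were. DESeq2, run as an alternative, called 1 lower, Csf1r. The median log2 difference of the 29 was 0.10, beside −0.01 for all genes. That median changed with single libraries. It was −0.007 without control AT2 library 4, −0.04 without Etv5KO AT2 library 4 and 0.21 without Etv5KO AT2 library 3. The 9 with too few counts for a test were Aif1, Ms4a7, Msr1, Cd163, Ngp, Camp, Flt3, Xcr1 and Cd209a.

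Cd68 encodes macrosialin, a heavily glycosylated protein of lysosomes and late endosomes that is abundant in macrophages. Control AT2 libraries read 16.2, 24.4, 15.9 and 17.7 CPM and Etv5KO AT2 libraries 29.1, 30.5, 28.0, 26.1 and 31.1 CPM. The lowest Etv5KO library stood above the highest control library, which was library 2, so the groups did not overlap. Cd68 rose to 156% of control, a log2 difference of 0.65 (SE 0.13, edgeR adjusted p = 0.00767), and it was past the threshold in 15 of 15 alternative settings. In lung the same gene read 87.5, 59.5, 50.7, 59.5 and 49.5 CPM in controls and 46.7, 61.9, 54.3, 72.7 and 58.4 in Etv5KO, with overlap, and a log2 difference of −0.07 (95% interval −0.41 to 0.27). None of its 50-base words occurs in another gene.

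Ly6c2 read 21.3, 17.6, 28.5 and 20.9 CPM in control AT2 cells, with 34.3, 29.6, 34.4, 38.5 and 32.2 CPM in those labelled Etv5KO. All 5 Etv5KO libraries were above all 4 controls, of which library 3 came nearest. Ly6c2 rose to 154% of control, a log2 difference of 0.62 (SE 0.13, edgeR adjusted p = 0.00933). The call held in 14 of 15 alternative settings and was lost when AT2 and lung were fitted together, at 0.62 with adjusted p = 0.141. Lung libraries read 14.7, 25.4, 10.1, 17.4 and 15.4 CPM in controls and 7.88, 18.7, 27.0, 21.8 and 18.6 in Etv5KO, overlapping widely, with a log2 difference of 0.18. Ly6c1 was higher too in Etv5KO AT2 cells, 49.7 against 38.6 CPM, a log2 difference of 0.37 (edgeR adjusted p = 0.0452), and how reads were split between this pair is uncertain. Groups without overlap were found for 5.90% of all genes tested in the higher direction and 6.49% in the lower.

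The members next in order of p did not pass. Mertk in AT2 cells differed by 0.42 on the log2 scale (95% interval 0.13 to 0.71, edgeR adjusted p = 0.0696), and all its Etv5KO libraries but library 3 were above every control. It passed with scaling by library size alone, with DESeq2 and without control AT2 library 3 (adjusted p = 0.0333, 0.0352 and 0.0369). Csf1r had an estimate of −0.67 (95% interval −1.14 to −0.20, edgeR adjusted p = 0.0782), with the highest value in control library 2, and passed only with DESeq2 (adjusted p = 0.0273). Mrc1 had an estimate of 0.62 (95% interval 0.14 to 1.10, edgeR adjusted p = 0.114) and passed only when AT2 and lung were fitted together (adjusted p = 0.0399). Mertk, Csf1r and Mrc1 each overlapped between genotypes.

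Other members of each role did not move far enough to be called in AT2 cells. Ptprc had a log2 difference of −0.07 (95% interval −0.62 to 0.48), Spi1 of 0.19 (−0.29 to 0.67), C1qa of 0.00 (−0.60 to 0.61) and Ccr2 of −0.09 (−0.74 to 0.57). Csf3r had 0.30 (−0.44 to 1.03) and Itgax 0.26 (−0.42 to 0.94). Counts behind these intervals are few: 20 members had fewer than 100 counts over the 4 control AT2 libraries, and 17 over the 5 Etv5KO libraries. The intervals of Spi1, Csf3r and Itgax include a rise of the size seen for Cd68, and those of Ptprc, C1qa and Ccr2 do not.

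Summed over the members of each role, AT2 libraries overlapped between genotypes except for the 4 monocyte genes, where Ly6c2 makes up most of the sum (24.6 to 34.2 CPM in controls and 36.3 to 45.6 in Etv5KO). The sum over all 38 members was 107.5 to 168.8 CPM in controls and 138.9 to 192.2 in Etv5KO. Summed markers of several other cell types were also higher at both ends of their range: the endothelial sum was 103 to 147 CPM in controls and 112 to 176 in Etv5KO, the mesenchymal sum 42.4 to 70.2 and 51.2 to 94.98, and the lymphocyte sum 26.7 to 46.8 and 43.0 to 59.9. None of the 8 endothelial, 6 mesenchymal and 6 tested lymphocyte genes passed by the edgeR test, with medians of 0.27, 0.45 and 0.49 on the log2 scale. An unadjusted p under 0.05 was found for 2 of each list, and for 3321 of all 14939 genes tested. The lymphocyte gene Cd79b, which makes up most of its sum, had a log2 difference of 0.48 (edgeR adjusted p = 0.0781) and was called higher by DESeq2 (adjusted p = 0.0302), with library size only (0.0322), without control AT2 library 3 (0.0259) and without Etv5KO AT2 library 2 (0.0492). The mesenchymal gene Pdgfra passed without Etv5KO AT2 library 4 (adjusted p = 0.0315, and 0.152 with all libraries). Of the 4 airway markers 2 rose, where 5.03% of all genes tested did. Cyp2f2, a cytochrome P450 gene of club cells, rose from 114 ± 32.0 to 359 ± 19.5 CPM (log2 1.66, edgeR adjusted p = 6.37e-05), and Dynlrb2, a dynein light chain gene, from 16.6 ± 2.48 to 26.3 ± 5.44 CPM (log2 0.66, edgeR adjusted p = 0.0219). The Dynlrb2 call was lost without control AT2 library 4 or Etv5KO AT2 library 1, 3 or 4 (adjusted p up to 0.069). The airway sum was 325 to 724 CPM in controls and 633 to 947 in Etv5KO. Of 7 AT2 markers 2 fell, where 4.84% of all genes tested did. These 2 were the surfactant protein gene Sftpa1 (log2 −0.93, edgeR adjusted p = 0.00209) and the protease gene Napsa (log2 −0.45, edgeR adjusted p = 0.0301). Napsa was lost in 7 of 15 settings, without control AT2 library 1, 3 or 4 or Etv5KO AT2 library 1, 2, 3 or 5 (adjusted p up to 0.109). The AT2 markers Sftpb and Lamp3 were called lower by DESeq2 (adjusted p = 0.0447 and 0.000652). Without control AT2 library 2 edgeR called both lower too (adjusted p = 0.0319 and 0.0229). Of the 7 AT2 marker estimates 6 were negative, where 7643 of all 14939 genes had a negative one. Erythroid sums were at most 0.543 CPM in every AT2 library. The part of such cells in the values of Cd68 and Ly6c2 was not tested. Of the 29 members tested in AT2 cells, 19 had a positive and 10 a negative estimate, where 7296 of all 14939 genes had a positive one. Mertk and Mrc1 were among the former, and Adgre1 (log2 −0.11) and Ptprc (−0.07) among the latter.

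**Figure D3:**
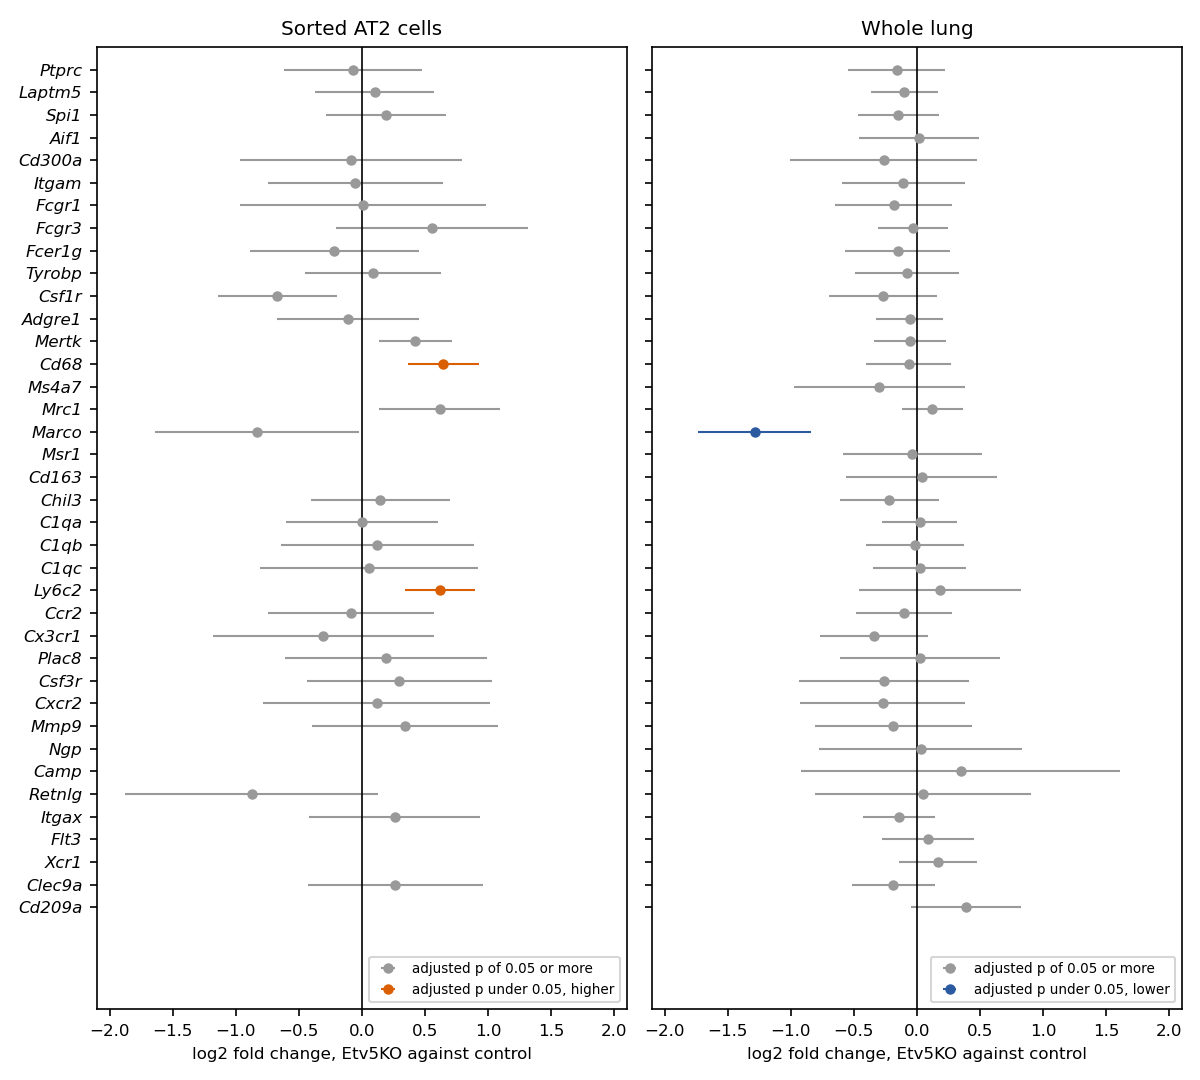
Log2 fold change of each member, Etv5KO against control, in sorted AT2 cells (left) and whole lung (right), with 95% intervals; coloured points have an adjusted p under 0.05, and members with no point had too few counts. Cd68 (0.65) and Ly6c2 (0.62) are coloured on the left and Marco (−1.29) on the right, and the other intervals are wider on the left than on the right for most members.

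The third comparison asks the same question in whole lung, where these genes are well counted and all 38 were tested. Marco fell and no other member passed: 1 member was lower, against 0.211% of all 17098 genes tested, and none was higher by the edgeR test, against 0.205%. Marco was also the only member at an unadjusted p under 0.05, where 944 of all 17098 genes tested were. DESeq2 called no member higher. The median log2 difference of the members was −0.07, beside −0.01 for all genes, and it was 0.03 without control lung library 1.

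Marco encodes a collagenous scavenger receptor that binds bacteria and particles and is a standard marker of alveolar macrophages. Control lungs read 16.4, 21.3, 16.9, 14.1 and 11 CPM and Etv5KO lungs 6.77, 4.12, 6.23, 9.17 and 6.38 CPM. Every Etv5KO lung was below every control lung, library 4 of the former coming nearest to library 5 of the latter. Marco fell to 41.0% of control, a log2 difference of −1.29 (SE 0.21, edgeR adjusted p = 0.0167). Groups without overlap in this direction made up 0.544% of all genes tested. The call held in 13 of 16 alternative settings, and adjusted p rose to 0.0558 without control lung library 3, 0.0563 without Etv5KO lung library 3 and 0.0519 without Etv5KO lung library 5, with differences of −1.26, −1.27 and −1.27.

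In AT2 cells Marco read 0.977, 0.778, 0.606 and 0.415 CPM in controls and 0.394, 0.422, 0.634, 0.230 and 0.206 CPM in Etv5KO, from 55 and 37 reads in all. The groups overlapped there, and the difference of −0.83 did not pass (95% interval −1.64 to −0.02, edgeR adjusted p = 0.210). In lung, none of 9 other alveolar macrophage genes, among them Siglecf, Fabp1, Ear1 and Krt79, passed by the edgeR test. Their median log2 difference was −0.13, and 8 of the 9 estimates were negative, where 9234 of all 17098 were. An unadjusted p under 0.05 was found for 2 of the 9, and for 944 of the 17098. DESeq2 called Ear1 lower (log2 −0.49, adjusted p = 0.049, and 0.235 by edgeR). Siglecf, the sialic acid lectin of these cells, had −0.07, and among the members Mrc1 had 0.12 (95% interval −0.12 to 0.36), Itgax −0.14 (−0.43 to 0.14) and Chil3 −0.22 (−0.61 to 0.18). Whether these differ from Marco was not tested. No word of 50 bases of Marco occurs in another gene.

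Following Marco by p in lung came 4 members that did not pass, all with edgeR adjusted p of 0.961 or more. Cd209a read 6.62, 7.21, 6.23, 6.90 and 11.1 CPM in control lungs and 9.60, 7.48, 9.31, 14.5 and 8.84 in Etv5KO lungs, a log2 difference of 0.39 (95% interval −0.04 to 0.82), with library 5 high among controls and library 4 high among Etv5KO. Cx3cr1 differed by −0.34 (−0.77 to 0.09), Csf1r by −0.27 (−0.70 to 0.16) and Clec9a by −0.19 (−0.52 to 0.14). All 4 overlapped between genotypes. For the genes of the other roles the intervals were narrower than in AT2 cells: Ptprc had −0.16 (−0.55 to 0.22), Spi1 −0.15 (−0.47 to 0.17), C1qa 0.02 (−0.28 to 0.32), Ccr2 −0.10 (−0.48 to 0.27) and Csf3r −0.26 (−0.94 to 0.41).

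Lung libraries differed among themselves in ways that the genotype does not give. Etv5KO lung library 1 was the lowest of all 10 lungs for 23 of the 38 members, and control lung library 1 the highest for 16. The call of Marco held without either. The pattern over members differed by role. Neutrophil genes summed to 65.7 CPM in Etv5KO lung library 1 and to between 149 and 262 in the other Etv5KO lungs, while its C1q sum of 143 CPM lay among theirs, and for Cd163 it was the highest library at 16.6 CPM. Control lung library 1 had the highest C1q sum, 209 CPM, but the lowest neutrophil sum of its group, 159 CPM. The median coefficient of variation among Etv5KO lungs was 50.7% for neutrophil genes and 10.3% for C1q genes, and among control lungs 30.7% and 30.6%.

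**Figure D4:**
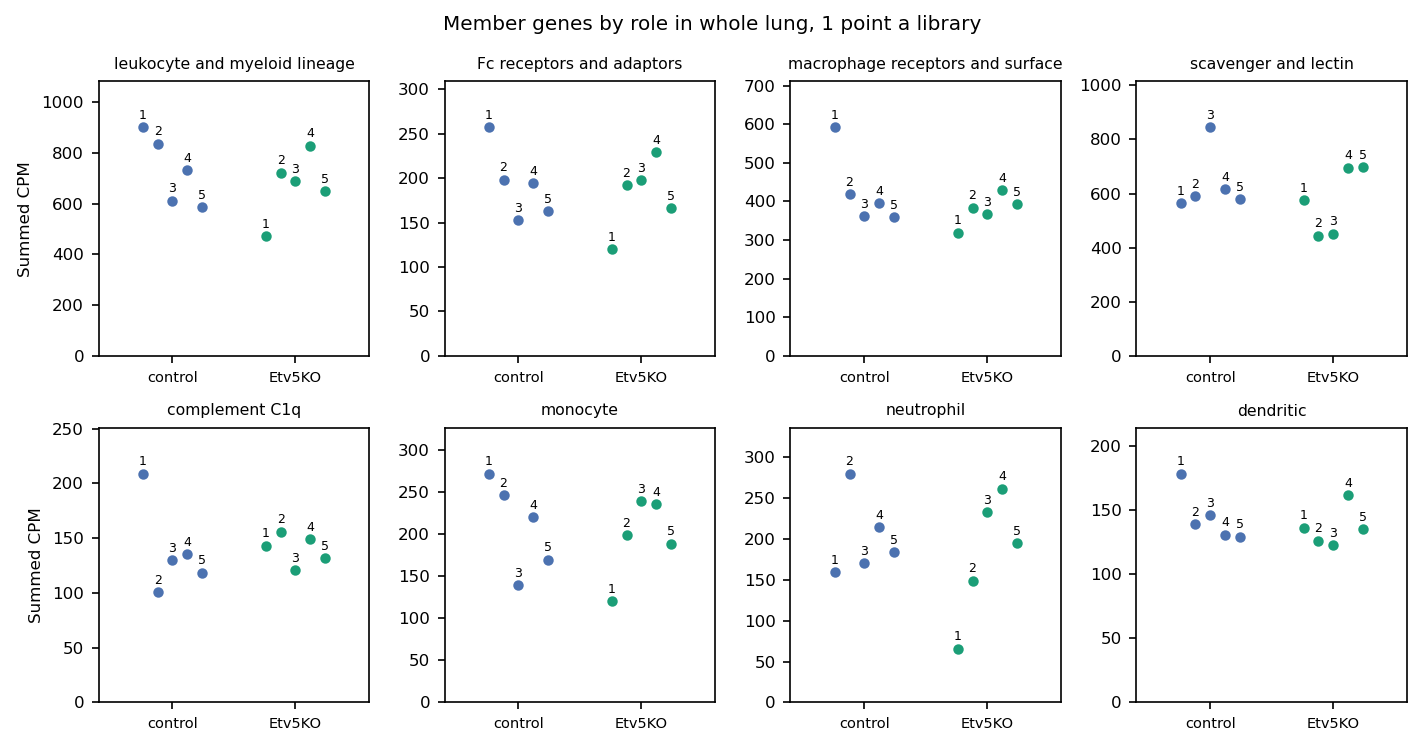
Summed CPM of the members of each role in control (blue) and Etv5KO (green) lung, 1 point for each library with its number, on axes that start at 0. The genotypes overlap in all 8 roles, and Etv5KO library 1 is low for neutrophil genes (65.7 CPM) but not for C1q genes (143 CPM).

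Sorted AT2 libraries varied more for these genes, with a median coefficient of variation over members of 31.1% in controls and 36.7% in Etv5KO, against 25.0% and 21.6% in lung. AT2 control library 4 was the lowest of the 9 for 11 members and AT2 control library 2 the highest for 9. On the Etv5KO side, library 3 was lowest for 10 and library 4 highest for 12. Within that spread Cd68 was the steadiest member of the Etv5KO AT2 group, at 6.92%, and Ly6c2 and Mertk were near it, at 9.63% and 9.25%. Few reads by themselves widen this measure. Cd68 had 2741 and Mertk 877 reads in that group. Fewer than 100 counts over the group were found for 20 members in control AT2 cells, 17 in Etv5KO AT2 cells and 1 in each lung group. The part of read number in these spreads was not tested.

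Whether the effect of the Etv5KO label differed between AT2 cells and lung was tested as an interaction over all 19 libraries. None of the 38 members passed in either direction, where 0.791% of 17698 genes were higher in AT2 cells and 0.802% lower (1.59% either way), by the edgeR test. Cd68 came nearest, with a difference of the effects of 0.70 (95% interval 0.25 to 1.16, edgeR adjusted p = 0.143), and it passed without control AT2 library 2 (0.89, adjusted p = 0.0282). Mertk had 0.46 (edgeR adjusted p = 0.363) and Mrc1 0.49 (edgeR adjusted p = 0.485), and these 3 were the members with an unadjusted p under 0.05. Of all 17698 genes, 1765 had one. DESeq2 called no member either. For Ly6c2 the difference was 0.42 (95% interval −0.31 to 1.16) and for Marco 0.45 (−0.51 to 1.41). A rise of Cd68 and Ly6c2 particular to AT2 cells, or a fall of Marco particular to lung, was therefore not shown.

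A further 91 genes of the same cells, their growth factors, receptors and transcription factors were read for context. In AT2 cells none of the 7 tested alveolar macrophage genes and none of the 5 tested dendritic genes passed by the edgeR test. An unadjusted p under 0.05 was found for 2 of each, and for 3321 of all 14939 genes tested. DESeq2 called the alveolar macrophage gene Plet1 lower (log2 −0.35, adjusted p = 0.0302), as did the fit of both tissues (adjusted p = 0.0465), which also called Atp6v0d2 higher (log2 0.54, adjusted p = 0.0375). Of 14 further monocyte and macrophage genes 1 was higher, where 5.03% of all genes tested were, and 4 were lower, where 4.84% were. Lgals3, the gene of the lectin galectin-3, rose from 71.0 ± 6.40 to 142 ± 16.0 CPM in AT2 cells (log2 1.00, adjusted p = 6.81e-05). Apoe, the apolipoprotein E gene, fell from 475 ± 98.5 to 230.1 ± 36.5 CPM (log2 −1.04, adjusted p = 0.00120) and Cd14, the co-receptor for bacterial lipopolysaccharide, from 64.1 ± 11.8 to 29.6 ± 8.15 CPM (log2 −1.11, adjusted p = 0.00523). Pf4, a platelet and macrophage chemokine gene, fell from 2.46 ± 0.961 to 0.792 ± 0.159 CPM (log2 −1.64, adjusted p = 0.00374). In control AT2 cells Cd14 was at 220% and Apoe at 113% of lung, beside the median of 3.53% for the members. The remaining lower gene, Trem2, a lipid receptor of macrophages chosen after its values were seen, fell from 1.12 ± 0.376 to 0.304 ± 0.175 CPM.

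Phagocytes make superoxide with an NADPH oxidase, and Ncf1, which encodes a cytosolic part of that enzyme, read 22.8, 16.6, 23.9 and 22.5 CPM in control AT2 cells, with 93.6, 91.7, 121, 90.0 and 95.2 CPM in Etv5KO. The groups lay far apart. Ncf1 rose to 461% of control (log2 2.20, SE 0.12, edgeR adjusted p = 1.9e-06), was at 35.5% of lung in controls and 142% in Etv5KO, and differed in lung by 0.21 without passing.

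Among 12 further neutrophil genes Lcn2, which encodes the iron-carrier trap lipocalin 2 and is made by epithelia as well, was the only gene called. Of the 12, 8 were tested in AT2 cells and 10 in lung, where 4.84% and 0.211% of all genes tested were lower. Lcn2 fell from 939 ± 354 to 249 ± 52.2 CPM in AT2 cells (log2 −1.91, edgeR adjusted p = 0.000327) and from 103 ± 42.7 to 40.8 ± 6.27 CPM in lung (log2 −1.34, edgeR adjusted p = 0.0237). Its control AT2 level was 911% of lung, above that of every member. In lung the call held in 10 of 16 settings and was lost without control lung library 2 or 4 and without Etv5KO lung library 1, 2, 3 or 5, the adjusted p reaching at most 0.0702.

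Signals that act on these cells were mixed. Of 21 growth factor and chemokine genes 15 were tested in AT2 cells, and 1 rose and 2 fell. Of all genes tested there, 5.03% were higher and 4.84% lower. Il34, a ligand of the receptor encoded by Csf1r, fell from 55.5 ± 5.50 to 24.2 ± 2.24 CPM (log2 −1.19, adjusted p = 1.54e-05), and Cxcl15, a lung chemokine for neutrophils, from 13552 ± 1890 to 8552 ± 1425 CPM (log2 −0.66, adjusted p = 0.0125). Il33, an alarmin gene, rose from 799 ± 123 to 1088 ± 145 CPM (log2 0.45, adjusted p = 0.0422). The Il33 call held in only 7 of 15 settings and was lost without control AT2 library 1, 2 or 3, without Etv5KO AT2 library 2, 3, 4 or 5, and in the fit of both tissues (adjusted p up to 0.127). None of the 20 tested in lung passed by the edgeR test. Where 944 of all 17098 genes tested had an unadjusted p under 0.05, 4 of these 20 did. DESeq2 called 2 of them there, in the direction of the AT2 cells: Il33 at log2 0.76 (adjusted p = 0.00149, and 0.0932 by edgeR) and Cxcl15 at −0.57 (adjusted p = 5.4e-05, and 0.0638 by edgeR). Over the alternatives the adjusted p ran from 0.00149 to 0.227 for Il33 in lung, which also passed with no filter and in the fit of both tissues. It ran from 5.4e-05 to 0.195 for Cxcl15, which also passed with no filter and without Etv5KO lung library 4.

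Of 12 receptor genes 11 were tested in AT2 cells, and 2 fell, where 4.84% of all genes tested did. Tlr4, the receptor gene for lipopolysaccharide, fell from 40.3 ± 2.70 to 25.9 ± 3.57 CPM (log2 −0.63, adjusted p = 0.00222). Cxcr4, a chemokine receptor gene, fell from 8.09 ± 1.61 to 5.27 ± 0.736 CPM (log2 −0.62, adjusted p = 0.0320), which held in 9 of 15 settings and not without control AT2 library 2, 3 or 4, without Etv5KO AT2 library 2 or 3, or with scaling by library size alone (adjusted p up to 0.083). Of 10 myeloid transcription factors Cebpa, which AT2 cells also express, was the only gene called by the edgeR test. In AT2 cells 8 of the 10 were tested and in lung all 10, where 4.84% and 0.211% of all genes tested were lower. Cebpa fell from 877 ± 111 to 509 ± 106 CPM in AT2 cells (log2 −0.78, adjusted p = 0.00538) and from 186 ± 15.5 to 128 ± 17.6 CPM in lung (log2 −0.54, adjusted p = 0.0305). In lung that call held in 7 of 16 settings, the adjusted p reaching 0.102, and was lost without control lung library 2, 3, 4 or 5, without Etv5KO lung library 1, 2, 3 or 5, and in the fit of both tissues.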

How the data were processed

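Polyadenylated RNA was read in 9 AT2 and 10 lung libraries. Each deposited count sums, per the file headers, the uniquely aligned reads of a gene model, and each RPKM value is, per the file headers, divided by a size factor of the authors for its sample. The submitters' processing notes name GSNAP, with no version, and genome build mm9. Counting tool, annotation and use of strand: not given in the sources used here. Of the 36528 gene IDs, 31049 were named from a RefSeq table (GRCm38.p6), and all 38 members matched; no mm9 coordinates are given.

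Counts were tested with edgeR 4.0.16 in R 4.3.3: filterByExpr (minimum count 10, minimum total 15), TMM scaling, the two-sided quasi-likelihood F test, and Benjamini-Hochberg adjustment over all genes tested, called at under 0.05. Genotypes were compared in 1 fit for each tissue, AT2 was compared with lung within each genotype, and an interaction over all 19 libraries compared the genotype effects. The fits were tested on simulated data. SEs come from the F statistic, and percents of control or of lung are fitted ratios. The RPKM values are the counts up to 1 factor for each library and 1 length for each gene, and were used for levels between genes. Alternatives were other scalings, DESeq2 1.42.0, no filter, 1 fit over all 4 groups and leaving out each library.

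The labels name 5 mice for each genotype, and the fifth AT2 control was not analysed here. Libraries are numbered in accession order, which pairs nothing. Nothing says that libraries came from separate mice beyond that number, so p-values measure the spread between these libraries. No 2 libraries of a group were duplicates (chi-square per degree of freedom between replicates 7.81 to 61.8).

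The members and lists were chosen with earlier results of these data known. Named with values are: members past a threshold, 14 defining members, the 5 members furthest below lung and the 5 least so, the 5 smallest p in each genotype comparison, up to 4 called genes of each further list and the most abundant gene of each cell type list. Plet1, Atp6v0d2, Ear1, Pdgfra, Sftpb and Lamp3, called between genotypes in alternatives only, were named after their values were seen. Parts of the further lists are not reported here. Shared 50-base words were counted in GENCODE vM21 transcripts.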

Additional observations from a re-analysis of the deposited data

Results flagged for a closer look

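Within each group of 4 or 5 libraries, a single library far from the others (a gap to its neighbour that is large against the whole range, by Dixon's test) was sought for each of the 38 members. Of 152 pairs of member and group, 10 held such a library, where chance at 1 in 20 gives 7.6. In control lung library 1, Cd68 read 87.55 CPM (the other controls 49.49 to 59.55) and Ms4a7 11.42 CPM (3.34 to 5.25). Control lung library 3 read 678.6 CPM for Chil3 (423.6 to 475.7) and 42.26 CPM for Clec9a (27.83 to 31.46). Csf3r read 117.7 CPM in control lung library 2 (58.24 to 69.72) and Cd209a 11.05 CPM in control lung library 5 (6.233 to 7.208). In Etv5KO lung library 1, Csf1r read 137.9 CPM (196.3 to 216.2 in the others) and Cd163 16.64 CPM (6.039 to 7.5). Ngp read 5.885 CPM in Etv5KO lung library 3 (1.354 to 2.333), and 0.5906 CPM in Etv5KO AT2 library 1 (0 to 0.1547), the latter from 9 reads. No library of the AT2 groups stood apart for Cd68 or Ly6c2, and no lung library for Marco.

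The further genes Ncf1, Lgals3, Pf4, Apoe and Il34 had an effect of the Etv5KO label that differed between AT2 cells and lung, by the interaction term in edgeR, where 1.59% of all genes tested did. The effect in AT2 cells minus that in lung was 1.98 on the log2 scale for Ncf1, 0.8462 for Lgals3, −1.639 for Pf4, −0.8225 for Apoe and −0.8184 for Il34 (adjusted p = 2.31e-07, 0.00502, 0.00709, 0.0465 and 0.00547). For Apoe the call held in only 6 of 24 alternative settings, with adjusted p up to 0.146. None of the 38 members was among the genes with such a difference.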

How the results depend on the processing

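No paired analysis was possible because the labels carry no replicate numbers. Of the members, Cd68 in AT2 cells kept its direction and call in 15 of 15 alternatives (log2 0.57 to 0.81, adjusted p 7.05e-05 to 0.0273), Ly6c2 in 14 of 15 (0.53 to 0.76) and Marco in lung in 13 of 16 (−1.44 to −1.16).

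Counts moved as follows. With DESeq2, 1 member was lower in AT2 cells, 197 genes passed in lung (123 higher, 74 lower) and 467 in the interaction (241 higher, 226 lower). In 1 fit over all 4 groups, 116 genes passed in lung, 69 of them higher. With library size only, the genes higher in AT2 cells than in lung numbered 3318 in controls and 3579 in Etv5KO, members higher in Etv5KO numbered 0, and Tlr4 in control AT2 against lung reversed to −0.13 (adjusted p = 0.125), that scaling having moved the median gene in controls from −0.01 to −0.42. The cause of the others was not tested.

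Leaving out each library gave 44 to 80 genes in lung (21 to 38 higher, 23 to 42 lower) with 0 to 1 member lower. It gave 0 to 1 member higher in control AT2 cells than in lung, and 85 to 161 genes lower in the interaction with 0 to 1 member higher.

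Few reads of these genes limit the AT2 values: 9 members had too few counts for the genotype test.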
